A study of Homo sapiens with 6 samples.

Results

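In K562 cells carrying a hairpin against Staufen 2 (shStau2), the H3K4me2 peak list was set against the H3K4me3 peak list, site by site. K562 is an established line from a human chronic myeloid leukemia in blast crisis. Staufen 2 is a double-stranded RNA-binding protein that acts in the transport, translation and decay of RNAs. Peaks of both lists were merged wherever they shared at least 1 base, and each merged site was classed by the marks it held. On chromosomes 1, 2, 3 and 10 to 22, and on chromosome 4 up to 185623562, the 65507 H3K4me2 peaks and 19728 H3K4me3 peaks formed 62154 sites, out of 180871 peaks in the 4 deposited lists.

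The groups are shStau2 H3K4me2, shStau2 H3K4me3, shControl H3K4me2 and shControl H3K4me3, with 1 library each, and each hairpin has 1 input library. No other treatment and no time after infection is named in the labels. Both marks of a hairpin were called against the same input, so their fold enrichments share it. There is no replicate, so no test was run, every value describes these libraries, and the 95% intervals given with shares are exact Clopper-Pearson intervals that cover counting error only. The shStau2 H3K4me2 library held 27979370 tags after duplicate removal, the shStau2 H3K4me3 library 26320758 and their input 19921064, with 8% and 13% of tags removed as duplicates from the 2 ChIP libraries. The STAU2 gene lies outside the compared chromosomes and RNA was not analysed here, so the knockdown itself was not checked.

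Lysine 4 of histone H3 is methylated by the SET1 and MLL (KMT2) enzymes and demethylated by LSD1 (KDM1A) and the KDM5 enzymes. H3K4me3 is known as a mark of the first nucleosomes at active promoters, most of all at promoters rich in CpG, where CXXC1 brings SET1 to unmethylated CpG. H3K4me2 also flanks these promoters and lies over enhancers and over promoters that are poised or weakly used. LSD1 removes the mono- and dimethyl group but not the trimethyl group.

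The classes differed in promoter sequence, and 7 promoters are printed here as examples, chosen after their values were seen. Each runs 5′ to 3′ on the gene's own strand over 250 bases before and 50 bases from the RefSeq gene start, in assembly GRCh38.p14, with CpG in capitals. CD3D, TUBB1 and HBD held H3K4me2 without H3K4me3, ATF7IP held H3K4me3 without H3K4me2, KDM1A and UROD held both marks, and ALB held neither. The printed stretch of CD3D (a T cell receptor chain, chr11:118342656-118342955, minus strand) has 5 CpG, that of TUBB1 (platelet beta-tubulin, chr20:59019179-59019478, plus strand) has 3 and that of HBD (delta-globin, chr11:5234434-5234733, minus strand) has 2. The stretch of ATF7IP (a partner of the H3K9 methyltransferase SETDB1, chr12:14365432-14365731, plus strand) has 24 CpG. KDM1A (chr1:23019218-23019517, plus strand) has 36, UROD (uroporphyrinogen decarboxylase of heme synthesis, chr1:45012004-45012303, plus strand) has 13 and ALB (albumin, made by liver cells, chr4:73404037-73404336, plus strand) has 4.
CD3D: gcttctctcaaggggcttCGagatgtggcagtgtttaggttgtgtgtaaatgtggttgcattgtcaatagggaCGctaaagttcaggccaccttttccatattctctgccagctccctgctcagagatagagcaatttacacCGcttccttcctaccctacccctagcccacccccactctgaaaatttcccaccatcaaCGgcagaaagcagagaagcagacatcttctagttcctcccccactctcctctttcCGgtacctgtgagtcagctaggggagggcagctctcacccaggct
TUBB1: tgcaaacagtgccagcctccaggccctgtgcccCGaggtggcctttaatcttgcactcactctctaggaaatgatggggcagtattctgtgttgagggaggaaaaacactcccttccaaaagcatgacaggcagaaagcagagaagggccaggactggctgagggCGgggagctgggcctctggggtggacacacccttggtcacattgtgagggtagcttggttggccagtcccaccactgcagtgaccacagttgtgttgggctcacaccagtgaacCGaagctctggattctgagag
HBD: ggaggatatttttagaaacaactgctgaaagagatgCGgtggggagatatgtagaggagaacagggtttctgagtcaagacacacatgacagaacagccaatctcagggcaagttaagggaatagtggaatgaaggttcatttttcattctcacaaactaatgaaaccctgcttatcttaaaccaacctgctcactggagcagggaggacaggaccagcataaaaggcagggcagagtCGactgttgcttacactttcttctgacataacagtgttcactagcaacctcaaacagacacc
ATF7IP: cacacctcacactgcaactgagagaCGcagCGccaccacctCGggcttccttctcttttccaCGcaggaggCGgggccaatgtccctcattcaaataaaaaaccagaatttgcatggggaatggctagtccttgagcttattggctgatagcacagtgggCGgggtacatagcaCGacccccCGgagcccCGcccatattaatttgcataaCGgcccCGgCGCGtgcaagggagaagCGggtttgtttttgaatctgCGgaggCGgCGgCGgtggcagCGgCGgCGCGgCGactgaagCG
KDM1A: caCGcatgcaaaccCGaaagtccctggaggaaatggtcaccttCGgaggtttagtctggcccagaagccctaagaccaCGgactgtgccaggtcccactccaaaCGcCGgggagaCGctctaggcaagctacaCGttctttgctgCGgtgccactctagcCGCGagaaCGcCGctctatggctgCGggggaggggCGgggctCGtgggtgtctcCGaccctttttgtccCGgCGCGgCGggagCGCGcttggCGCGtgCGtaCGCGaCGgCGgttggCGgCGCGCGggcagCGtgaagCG
UROD: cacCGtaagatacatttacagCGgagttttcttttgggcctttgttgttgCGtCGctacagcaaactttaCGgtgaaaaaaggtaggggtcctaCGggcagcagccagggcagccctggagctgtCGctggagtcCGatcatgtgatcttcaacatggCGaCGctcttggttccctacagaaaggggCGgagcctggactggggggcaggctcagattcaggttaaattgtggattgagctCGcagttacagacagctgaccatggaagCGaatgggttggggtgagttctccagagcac
ALB: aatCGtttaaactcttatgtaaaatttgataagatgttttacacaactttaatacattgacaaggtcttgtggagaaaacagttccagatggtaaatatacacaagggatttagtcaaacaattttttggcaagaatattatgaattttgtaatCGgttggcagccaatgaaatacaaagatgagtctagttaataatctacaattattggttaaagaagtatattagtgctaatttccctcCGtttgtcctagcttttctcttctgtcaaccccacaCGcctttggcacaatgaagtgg

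Over the whole lists, H3K4me3 lay almost wholly within H3K4me2, while most H3K4me2 peaks stood alone. H3K4me2 was the only mark at 44191 sites (71.1%, 95% interval 70.7 to 71.5), H3K4me3 at 592 sites (0.952%, 0.878 to 1.03), and 17371 sites held both (27.9%, 27.6 to 28.3). Counted by peaks, 32.5% of H3K4me2 peaks overlapped an H3K4me3 peak (32.2 to 32.9), and 97.0% of H3K4me3 peaks overlapped an H3K4me2 peak (96.8 to 97.2). That balance rests on the longer H3K4me2 list. At a −log10 q of at least 10 in both lists, 52.0% of H3K4me2 peaks overlapped H3K4me3, and with as many H3K4me2 as H3K4me3 peaks 86.0% did, while 78.7% of H3K4me3 peaks then overlapped H3K4me2. With equal numbers, 2756 sites held H3K4me2 only and 4203 held H3K4me3 only. In bases, the marks shared 24.7 Mb, which is 37.7% of the bases under H3K4me2 and 93.4% of those under H3K4me3. Sites with both were fewer but long, and each was merged from peaks of both marks. They covered 40.7 Mb, against 26.3 Mb for H3K4me2-only sites and 0.191 Mb for H3K4me3-only sites.

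Peaks that stood alone were narrow and low in both lists. Fold enrichment, the authors' own value for each peak, is the pileup at the summit over the local background, each plus 1, and it is compared here within 1 list. For H3K4me2, lone peaks had medians of 437 bases in width and 5.01 in fold enrichment, against 1448 bases and 17.7 for peaks that met H3K4me3. For H3K4me3, the medians were 282 bases and 4.65 for lone peaks, against 1004.5 bases and 17.8 for peaks that met H3K4me2. From the first to the third quartile, lone peaks ran from 4.13 to 6.92 in fold for H3K4me2 and from 3.70 to 5.63 for H3K4me3.

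Within each list, the share of peaks that met the other mark rose with height. The H3K4me2 list held 65507 peaks and the H3K4me3 list 19728, so the levels of the 2 lists are not directly comparable. Of H3K4me2 peaks under 4-fold, 2.48% overlapped H3K4me3; the share was 19.2% at 6- to 10-fold, 69.4% at 10- to 20-fold and 98.9% at 20- to 40-fold. All 766 H3K4me2 peaks of 40-fold or more overlapped H3K4me3, and 86 of 7977 peaks between 20- and 40-fold did not. Among H3K4me3 peaks under 4-fold, 81.1% already overlapped H3K4me2, 5 of the 3608 peaks between 20- and 40-fold did not, and all 5566 peaks of 40-fold or more did. Width gave the same order: 2.81% of H3K4me2 peaks narrower than 300 bases overlapped H3K4me3 and 97.3% of those of 4000 bases or more did.

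**Figure D1:**
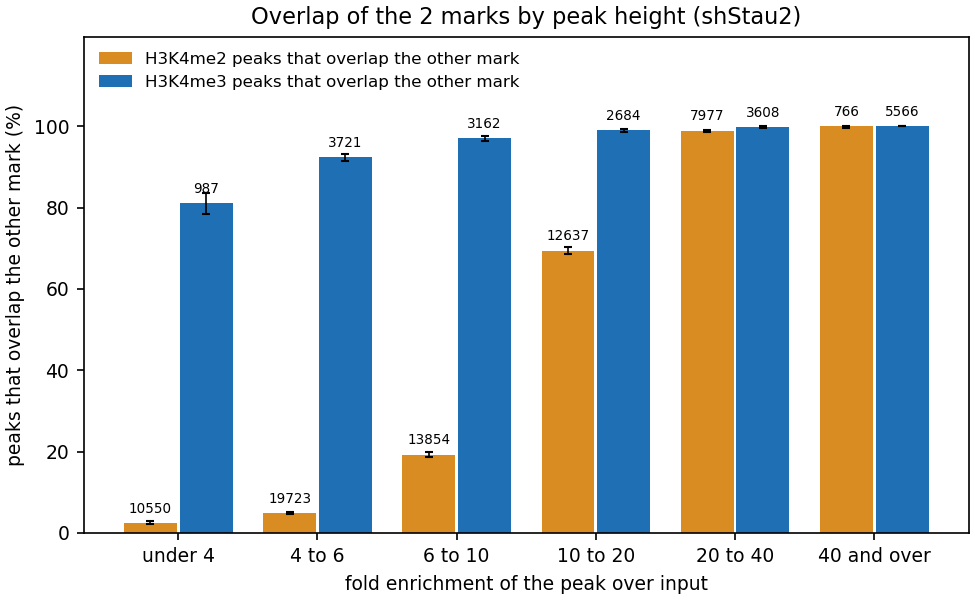
Share of peaks (%, vertical axis, bars with exact 95% intervals) that overlap the other mark, by the peak's own fold enrichment (horizontal axis), with the number of peaks above each bar. H3K4me2 bars climb with height from 2.48% to 100%, while H3K4me3 bars start at 81.1%. The H3K4me2 list held 65507 peaks and the H3K4me3 list 19728, so the 2 sets of bars are not directly comparable.

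By chromosome, H3K4me2-only sites made up 55.7% of sites on chromosome 19 and 74.5% on chromosome 2, the lowest and the highest shares of the 17 chromosomes. Chromosome 19 had the highest share of sites with both, 43.0%. H3K4me3-only sites made up 3.14% of the sites of chromosome 21 and 1.72% of those of chromosome 22, against 0.450% to 1.25% elsewhere.

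H3K4me2-only sites lay away from gene starts. Starts were taken for the 11893 protein-coding genes of the region whose RefSeq start was at hand, out of 14729, and a site was put at a start when it came within 1 kb of it. At such a start lay 2.47% of H3K4me2-only sites, 5.57% of H3K4me3-only sites and 43.5% of sites with both. Gene bodies held 48.6% of H3K4me2-only sites, 30.1% of H3K4me3-only sites and 18.7% of sites with both. Between genes lay 45.7%, 61.0% and 24.8% of the 3 classes in the same order. The remainder lay at either end of a gene whose start was not used here, or at the start of a non-coding gene. The median distance from a site's middle to the nearest of these starts was 37.9 kb for H3K4me2 only, 67.3 kb for H3K4me3 only and 7.83 kb for both.

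Sites with both marks were of unlike kinds at and away from gene starts. At gene starts their median fold was 22.4 for H3K4me2 and 43.5 for H3K4me3, with a median width of 2815 bases. Between genes, the 4303 sites with both had medians of 12.2 for H3K4me2 and 7.74 for H3K4me3 and a width of 1070 bases. Within gene bodies, the 3247 sites with both stood at 15.4 for H3K4me2 and 8.66 for H3K4me3. Within each list, the median fold of sites with both was thus lower between genes than at gene starts. H3K4me2-only sites kept nearly the same median fold in every position, from 5.01 between genes and in gene bodies to 5.87 at gene starts.

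Among the H3K4me2-only sites away from gene starts, the 6 of highest fold ran from 26.0 to 28.3. The highest lay between genes at chr1:157154581-157156518, 1938 bases wide, with a fold of 28.3, and the nearest start used here was that of ETV3 (an ETS-family repressor) at 17154 bases. Under shControl this site held both marks, at 9.02 for H3K4me2 and 3.16 for H3K4me3. A site of 3430 bases at chr1:112698190-112701619, over MOV10 and RHOC, stood at 27.2 under shStau2 and at 18.8 under shControl. Another lay at chr1:26377577-26379027, 5508 bases from the start of ZNF683, with 26.9 under shStau2 and 23.8 under shControl.

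The widest H3K4me2-only sites were broad domains inside genes. They covered 7079 bases in TSC22D2, 6587 in PIP4K2A, 6178 in TOP1 (DNA topoisomerase I) and 6044 in ZFPM1 (FOG1, the cofactor of GATA1 in erythroid and megakaryocytic cells), with folds of 10.9, 15.5, 18.6 and 24.3. At each of these 4 sites shControl also held H3K4me2, at 9.96, 14.2, 17.8 and 21.2, and no H3K4me3. The widest sites with both were merged from several peaks. A site of 34518 bases over a cluster of histone genes on chromosome 1 (among them H4C14 and H3C15) held 5 H3K4me2 and 6 H3K4me3 peaks. The next, of 30305 bases, ran over CBX5, HNRNPA1 and NFE2, the last of which encodes an erythroid and megakaryocytic transcription factor. Another, of 18042 bases at ZEB2, held a single H3K4me2 peak and 4 H3K4me3 peaks.

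H3K4me3-only sites were few, and 423 of the 592 (71.5%) held neither mark under shControl. In 136 (22.97%) shControl held H3K4me3, and in 38 (6.42%) it held H3K4me2. Their median distance to the nearest H3K4me2 peak was 12.7 kb. Only 111 (18.8%) had one within 1 kb, and 23 had one within 2 kb on both sides. The local background worked out from pileup and fold was at least 2 times the lowest of the list at 36.1% of H3K4me3-only peaks (32.3 to 40.2), against 18.2% of H3K4me3 peaks with H3K4me2 (17.7 to 18.8). For H3K4me2 the shares were 16.7% alone and 19.3% with H3K4me3. Whether a raised background bears on the H3K4me3-only class was not tested.

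The highest H3K4me3-only sites away from gene starts were narrow. At chr17:18650093-18650466, 374 bases wide, the H3K4me3 fold was 26.1 under shStau2 and 11.2 under shControl. At chr22:39875199-39875558, inside ENTHD1, it was 25.8 under shStau2 and 7.90 under shControl. At chr1:168056219-168056583, inside DCAF6, it was 20.01 under shStau2 and 10.2 under shControl. All 6 of the highest H3K4me3-only sites away from starts also held H3K4me3 and no H3K4me2 under shControl. One of the widest, 1083 bases at chr12:122526005-122527087, lay 390 bases from the start of RSRC2 (an SR-related protein), with a fold of 26.4 under shStau2 and 23.8 under shControl. By gene, RSRC2 was not of the H3K4me3-only class, as an H3K4me2 peak outside this site also lay within 1 kb of its start.

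Where both marks met, the usual arrangement was 1 H3K4me3 peak inside 1 wider H3K4me2 peak. Of the 17371 shared sites, 12717 (73.2%) held 1 peak of each mark. In these, the H3K4me3 peak lay wholly inside the H3K4me2 peak in 81.3%, and the H3K4me2 peak was the wider in 96.0%. Median widths were 1359 bases for H3K4me2 and 783 bases for H3K4me3, and the summits lay a median of 114 bases apart. A further 3201 sites (18.4%) held 1 H3K4me3 peak spanning several H3K4me2 peaks. This second arrangement lay mostly at gene starts: 79.1% of such sites lay at a gene start (77.7 to 80.5), against 33.8% of sites with 1 peak of each (32.9 to 34.6). Their median H3K4me3 fold was 48.4, against 13.2 at sites with 1 peak of each, while median H3K4me2 folds were 21.7 and 17.3 in the same order.

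At gene starts with both marks, H3K4me2 cover dipped over the start itself, while H3K4me3 cover was near its highest there. Among the 6201 such genes whose window overlapped no other gene's window, H3K4me2 peaks covered 63.9% of starts, 83.9% of positions 500 bases upstream and 90.2% of positions 500 bases downstream. H3K4me3 peaks covered 93.7% of starts, 95.1% of positions 100 bases downstream, where their cover was highest, 63.6% of positions 500 bases upstream and 89.1% of positions 500 bases downstream. At 2000 bases downstream, H3K4me2 still covered 45.5% and H3K4me3 20.7%. The H3K4me2 summit lay a median of 401 bases downstream of the start and within 250 bases of it in 16.7% of genes. For H3K4me3 the median was 209 bases downstream, with 56.4% within 250 bases. Over all 7908 genes with both marks, the start base lay under H3K4me3 and not H3K4me2 in 2837 (35.9%), and under H3K4me2 and not H3K4me3 in 256 (3.24%).

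Starts with H3K4me2 only had a different profile. In the 673 of them with a window of their own, H3K4me2 cover was highest near the start, at 51.7% on the start base, and fell to 21.8% at 500 bases upstream and 23.6% at 500 bases downstream. Their summits lay a median of 48 bases downstream of the start, 45.8% of them within 250 bases. No dip was seen there.

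**Figure D2:**
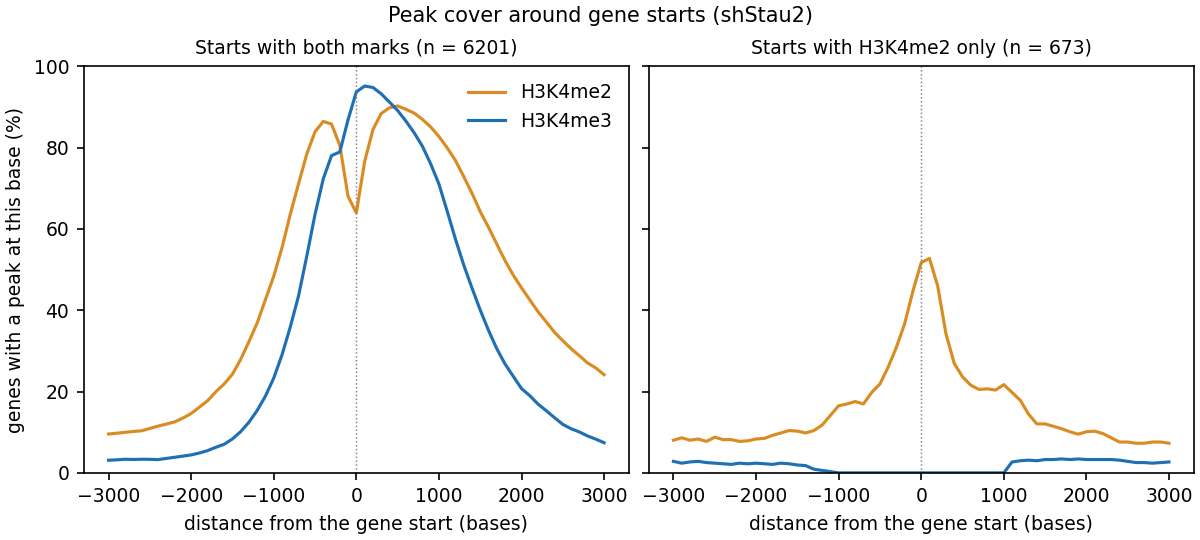
Share of genes with a peak over each base (%, vertical axis) by distance from the gene start in bases (horizontal axis, positive in the direction of transcription), for 6201 starts with both marks (left) and 673 starts with H3K4me2 only (right). H3K4me2 dips to 63.9% at starts with both, where H3K4me3 covers 93.7%, and peaks at starts with H3K4me2 only, where H3K4me3 is 0 within 1000 bases by the way the genes were chosen.

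By gene, most starts held both marks or neither. Within 1 kb of the start, 7908 of 11893 genes held both (66.5%), 713 held H3K4me2 only (6.0%), 24 held H3K4me3 only (0.202%) and 3248 held neither (27.3%). The count of 24 was not stable: it ranged from 20 to 936 over the alternatives, and was 936 when a peak's summit had to lie in the window. The start used lay more than 1 kb inside the annotated gene span at 1147 genes, 427 of them with neither mark, and another start of such a gene may carry other marks. Of the genes whose starts are described before the closing observations this holds for TOX2, MTCL2, HPN, KRT8, IQSEC1, EPB42, RUNX1, TUBB1, SMG6, IFI27, GAD1 and UBXN6. Over the other 10746 genes the shares were 67.9% for both, 5.62% for H3K4me2 only, 0.214% for H3K4me3 only and 26.3% for neither. The shares over all 11893 genes are the background for each gene list below. Median H3K4me2 fold was 6.16 at H3K4me2-only starts and 22.9 at starts with both. Median H3K4me3 fold was 4.68 at H3K4me3-only starts and 45.3 at starts with both.

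KDM1A itself, the demethylase of H3K4me2, held both marks, with 23.3-fold H3K4me2 and 67.7-fold H3K4me3 under shStau2, against 17.3 and 27.3 under shControl. STAU1, the paralog of the targeted gene, also held both, with 19.8-fold H3K4me2 and 53.1-fold H3K4me3 under shStau2, against 23.9 and 25.2 under shControl. H3K4me3 fold was higher in the shStau2 library as a whole, with a median 2.06 times that of shControl over matched peaks. The median H3K4me2 fold was 1.20 times as high, while that of STAU1 was lower under shStau2. With 1 library per group, a change particular to either gene was not tested.

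The 6 H3K4me2-only starts of highest fold all lay in or beside domains that carry H3K4me3 further out. HES3 (46.0), ETV2 (45.3), BRICD5 (44.8), TOX2 (43.8), MTCL2 (42.8) and VSIG10L (42.1) each had an H3K4me2 peak that overlapped H3K4me3 outside the window. H3K4me2 covered 248 bases of the window in HES3, 190 in TOX2 and 248 in VSIG10L. It covered 615 in MTCL2 and 1485 in ETV2, and at ETV2 it lay over the start base. At BRICD5, 2 separate H3K4me2 peaks together covered 811 bases of the window. The one over the start base was not the 2976-base peak, which overlapped H3K4me3 further out. The fold of 44.8 is the higher of the 2 peaks, so it need not be the fold over the BRICD5 start. Starts with an H3K4me2 peak that overlapped H3K4me3 outside the window numbered 53 of the 713 (7.43%). Their median fold was 19.4, and that of the other 660 was 5.87. Among the 660, taken after their values were seen, the highest were MYBPHL (21.7), HPN, a membrane serine protease (21.7), CFAP45 (19.7), KLHL30 (19.1), ACTL10 (17.6) and KRT8, a keratin of simple epithelia (17.6). All 6 held H3K4me2 only under shControl too, at 13.2, 15.9, 17.0, 10.6, 12.1 and 12.1. TNFSF13B, the B cell survival factor BAFF, stood at 16.8 under shStau2 and 12.1 under shControl, with H3K4me2 only in both.

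The 24 H3K4me3-only starts, a class whose size depends on the settings, were led by ATF7IP, with a fold of 12.3 and a peak of 2322 bases under shStau2, against a fold of 6.30 under shControl, where it also held H3K4me3 only. CATSPER2, a sperm calcium channel subunit, stood at 11.7 under shStau2 and 6.38 under shControl. TPTE (8.20), TRIM71 (7.15), FAM246A (7.09) and IQSEC1 (5.76) came next. Of these 4, TPTE and TRIM71 held neither mark under shControl, while FAM246A and IQSEC1 held H3K4me3 only. On chromosome 22, FAM246A, FAM246C, GSC2 and SCARF2, had local backgrounds of 3.20, 3.20, 5.0 and 6.0, above the list's lowest of 1.48. Of the 24, 16 held neither mark under shControl and 8 held H3K4me3 only.

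The starts with the highest ranks in both lists were TMEM201, CLSTN1, MARCKSL1, NUDT16L1, TBC1D24 and HRAS. Their H3K4me2 folds ran from 45.3 at HRAS, a RAS-family GTPase, to 54.8 at CLSTN1, and their H3K4me3 folds from 74.1 at HRAS to 80.9 at TMEM201. H3K4me2 and H3K4me3 were both present at all 6 under shControl.

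Blood cell genes divided by lineage. Of 20 erythroid genes, 18 held both marks, 2 held H3K4me2 only and none held neither. Over all genes, 66.5% held both, 6.0% H3K4me2 only and 27.3% neither. UROD stood at 40.4 for H3K4me2 and 78.0 for H3K4me3, TFRC (the transferrin receptor) at 28.4 and 69.2, and KLF1 (an erythroid transcription factor) at 36.2 and 48.5. The 2 with H3K4me2 only were EPB42 (protein 4.2 of the red cell membrane, 9.70) and HBD (6.32). The start used for EPB42 is one of those inside the gene span. Of 21 genes of blood transcription factors and stem cells, 16 held both and 5 neither, 3 of the 5 at a start inside the gene span; RUNX1, for example, stood at 35.4 for H3K4me2 and 71.0 for H3K4me3.

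In other blood lineages, H3K4me2 without H3K4me3 appeared at several marker genes, in lists that are short. It also appeared in lists of cell types outside the blood, given below. Of 13 T cell genes, 7 held H3K4me2 only (53.8%, against 6.0% of all genes), 1 held both and 5 neither. The 7 were TBX21 (the T-bet transcription factor, 15.05), CD3D (8.87), ZAP70 (a T cell receptor kinase, 8.40), CD8A (6.16), LCK (5.15), CD247 (4.69) and CD2 (4.23). At ZAP70 the peak entered the window by 8 bases. The count of 7 became 4 within 0.5 kb of the start, 3 with a −log10 q of at least 10 and 1 with equal numbers of H3K4me2 and H3K4me3 peaks. BCL11B, a T cell transcription factor, held both, at 14.2 for H3K4me2 and 7.74 for H3K4me3, and H3K4me2 only under shControl. Under shControl, 6 of the 13 held H3K4me2 only and none held both.

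Of 25 granulocyte and monocyte genes, 5 held H3K4me2 only, 6 both and 14 neither. Over all genes these shares were 6.0%, 66.5% and 27.3%. CSF3R, the G-CSF receptor, held H3K4me2 at 12.4 under shStau2 and 12.1 under shControl. CD68, a macrophage lysosomal protein, held it at 11.05 under shStau2 and 13.0 under shControl. Neither gene held H3K4me3 in either hairpin. Of 17 megakaryocyte and platelet genes, 3 held H3K4me2 only, namely TUBB1 (15.05), ITGA2B (integrin alpha IIb, 7.72) and RAB27B (5.58), 6 held both and 8 neither. Of 11 B cell genes, 1 held H3K4me2 only (CD79A, a B cell receptor chain, 6.44), 2 both and 8 neither.

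In lists of cell types outside the blood, neither mark was listed at 13 of 20 neuronal genes, 12 of 15 hepatocyte genes and 5 of 10 fibroblast and mesenchymal genes, against 27.3% of all genes. For 5 of the 13 neuronal genes the start lay inside the gene span. The shares of 65%, 80% and 50% fell around those of the granulocyte and monocyte list (56%) and the B cell list (72.7%). The erythroid (0%), blood transcription factor and stem cell (23.8%), T cell (38.5%) and megakaryocyte and platelet (47.1%) lists lay lower. By this measure some blood lists thus overlapped the other lists and some lay below them. H3K4me2 only was held by 2 neuronal (10%), 2 hepatocyte (13.3%) and 1 fibroblast and mesenchymal gene (10%). In the B cell, megakaryocyte and platelet, and granulocyte and monocyte lists that share was 9.09%, 17.6% and 20%. Outside the T cell list (53.8%), H3K4me2 only was thus not particular to blood lists. Of 114 keratin and keratin-associated genes, 105 held neither mark, 9 held H3K4me2 only (7.89%, near the 6.0% of all genes) and none held both. Of 263 olfactory receptor genes, 252 held neither mark, 9 held H3K4me2 only and 2 held both.

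Both marks were held by most genes of the chromatin, RNA decay, cell cycle, respiratory chain, ribosomal protein and ZNF lists, against 66.5% of all genes. All 21 genes of the LSD1 complex and of H3K4 enzymes held both marks, with a median fold of 27.9 for H3K4me2 and 53.6 for H3K4me3, against 22.04 and 45.2 over all genes with the mark. RCOR1, the CoREST scaffold of LSD1, stood at 22.3 for H3K4me2 and 51.8 for H3K4me3. KMT2A, a methyltransferase, stood at 45.3 and 58.6, and KDM5B, a demethylase of H3K4me3, at 41.6 and 60.1. Of 17 Staufen and RNA decay genes, 15 held both, with UPF1, the helicase of Staufen-mediated and nonsense-mediated decay, at 35.2 for H3K4me2 and 66.4 for H3K4me3. SMG5 held H3K4me2 only (5.83) and SMG6 neither, the last at a start inside its gene span. Both marks were held by 25 of 26 cell cycle and DNA replication genes, 60 of 62 respiratory chain genes, 47 of 49 cytosolic ribosomal protein genes and 324 of 361 ZNF genes. The interferon and antigen presentation list stood apart from these and nearer to all genes: of its 18 genes, 14 held both (77.8%), 1 (IFI27, 9.32) held H3K4me2 only and 3 held neither.

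The developmental and ion channel lists were mixed. Of 56 developmental transcription factor genes, 9 held H3K4me2 only (16.1%, against 6.0% of all genes), 25 both and 22 neither (27.3% of all genes). NKX2-3 and HMX2 stood at 9.32, LHX8 at 7.69, TBX19 at 7.64 and SOX2, a pluripotency and neural factor, at 5.01. HMX2 held both marks under shControl, with H3K4me3 at 5.28. Of 91 ion channel genes, 6 held H3K4me2 only (6.59%, near the share over all genes) and 1 H3K4me3 only (KCNK4, a potassium channel, 4.99). Both marks were held by 34 (37.4%, against 66.5% of all genes) and neither by 50. Of 11 HOX genes, 1 held H3K4me2 only (HOXD4, 4.66), 5 both and 5 neither.

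**Figure D3:**
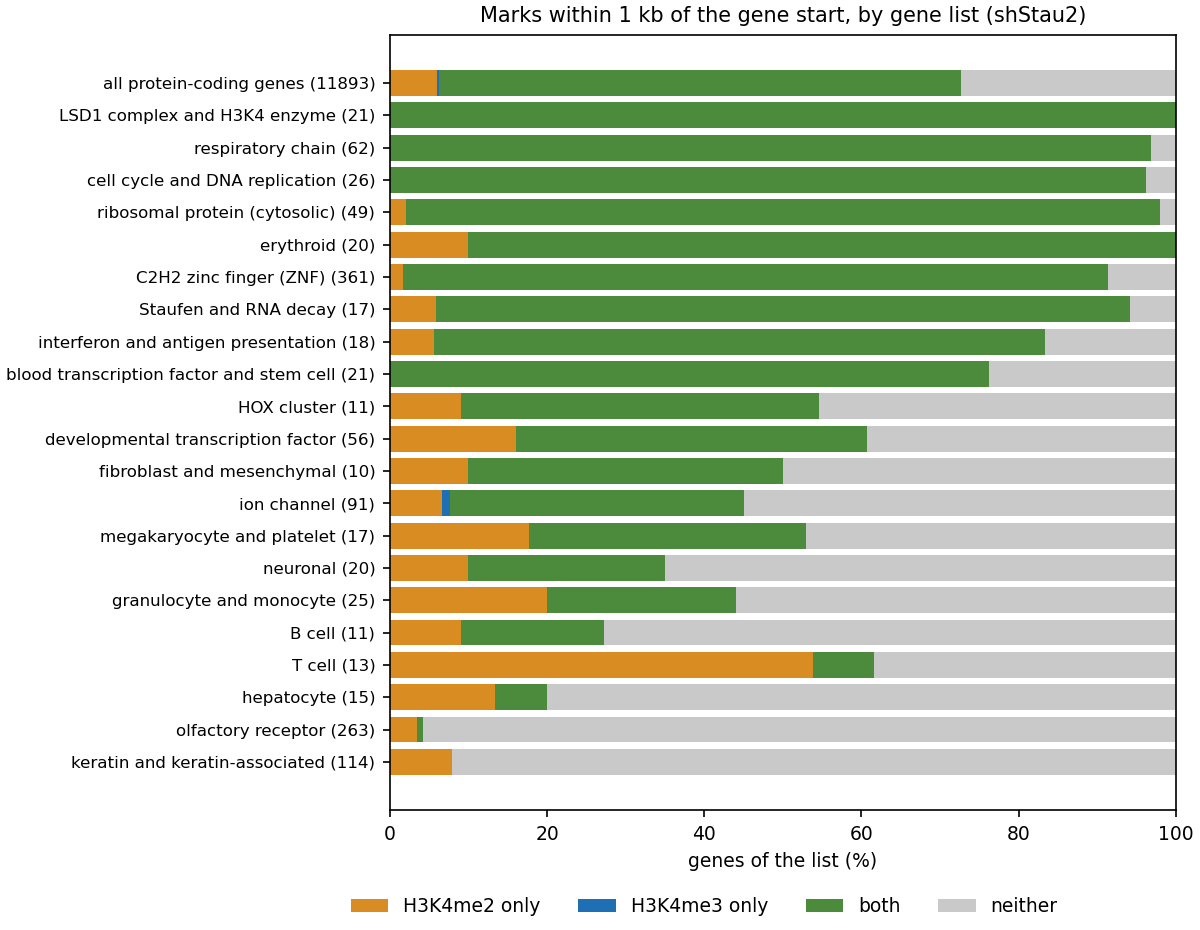
Share of the genes of each list (%, horizontal axis) with H3K4me2 only, H3K4me3 only, both or neither within 1 kb of the start, with the number of genes in brackets and all 11893 genes in the top row. Both marks fill 100% of the LSD1 list and 0% of the keratin list, and H3K4me2 only fills 53.8% of the T cell list.

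The balance of the marks differed between gene lists where both were present. Antibodies and libraries differ between the marks, so which fold is the higher has no meaning of its own, and starts were ranked by the ratio of H3K4me2 to H3K4me3 fold within the library pair. The upper quartile of that ratio held 1978 of the 7908 starts with both (25%), with median folds of 27.0 for H3K4me2 and 21.8 for H3K4me3, against 22.2 and 50.3 at the other 5930. It held 26 of 34 ion channel genes (76.5%) and 16 of 25 developmental transcription factors (64.0%). Ranked the same way among the starts with both under shControl, 21 of 27 and 15 of 23 genes of these lists were in the upper quartile. It also held 9 of 14 interferon and antigen presentation genes, 4 of 5 neuronal genes, 4 of 6 megakaryocyte and platelet genes and all 5 HOX genes, against 8 of 12, 5 of 5, 4 of 6 and 4 of 5 under shControl. GAD1, the glutamate decarboxylase of inhibitory neurons, stood at 48.1 for H3K4me2 and 29.5 for H3K4me3, and SYN2, a synapsin, at 33.2 and 11.7. F2RL3, the platelet thrombin receptor PAR4, stood at 35.2 and 16.2, and COL6A2, a collagen VI chain, at 43.1 and 20.5.

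Cell cycle, respiratory chain, ribosomal protein and ZNF genes were seldom in the upper quartile. It held 1 of 25 cell cycle and DNA replication genes, 4 of 60 respiratory chain genes (6.67%), 4 of 47 ribosomal protein genes (8.51%) and 43 of 324 ZNF genes (13.3%), against the 25% of all starts with both. Under shControl it held 0 of 25, 5 of 59, 5 of 47 and 42 of 314 genes of the same lists. LSD1 complex and H3K4 enzyme genes were near the background, at 5 of 21, while erythroid genes stood at 7 of 18 and genes of blood transcription factors and stem cells at 8 of 16. Under shControl these 3 lists stood at 5 of 21, 7 of 18 and 5 of 15. The starts farthest to either side were picked after their values were seen. DHH, the hedgehog ligand of Schwann and Sertoli cells, stood at 44.7 for H3K4me2 and 3.09 for H3K4me3, UBXN6 at 34.0 and 4.60, and HRC at 29.8 and 4.68; all 3 held H3K4me2 only under shControl. On the other side, TRA2B, a splicing factor, stood at 5.19 for H3K4me2 and 49.8 for H3K4me3, PAK2, a kinase, at 8.83 and 72.5, and YY1, a transcription factor, at 7.48 and 60.02. These 3 held both marks under shControl, at 19.0 for H3K4me2 and 34.3 for H3K4me3 in TRA2B, 10.7 and 26.9 in PAK2 and 8.51 and 30.3 in YY1. The H3K4me2 peak of TRA2B under shStau2 was 265 bases wide and did not overlap H3K4me3.

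**Figure D4:**
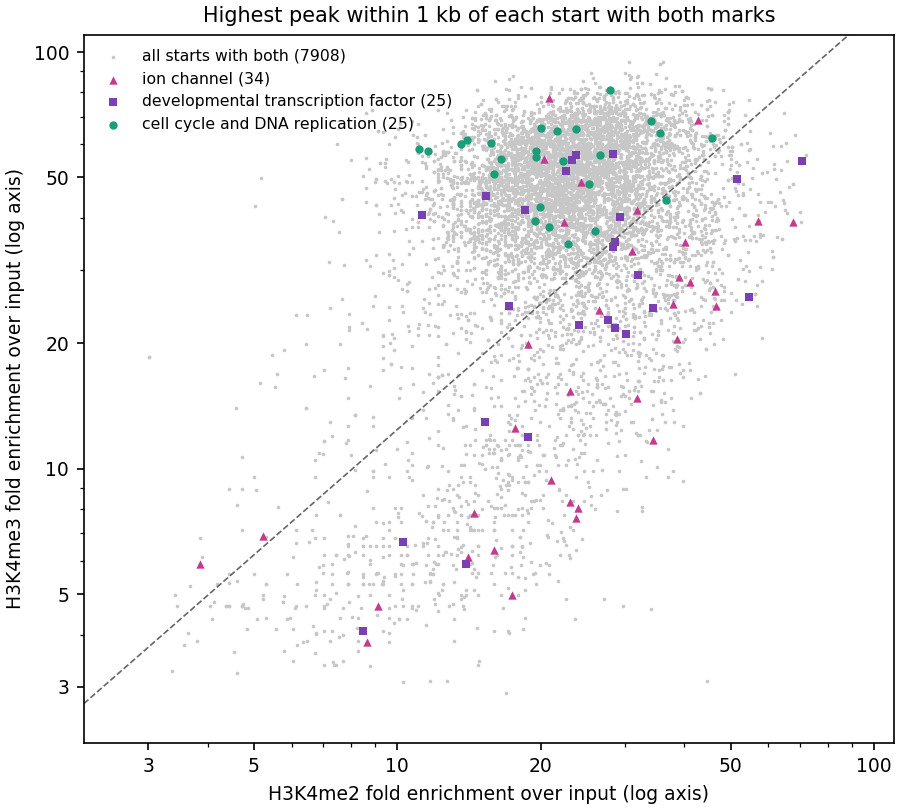
Fold enrichment of the highest H3K4me2 peak (horizontal, log axis) and H3K4me3 peak (vertical, log axis) within 1 kb of each of 7908 starts with both marks under shStau2, 1 point a gene, with the bound of the upper quartile of their ratio dashed. Of the coloured lists, 26 of 34 ion channel genes and 16 of 25 developmental transcription factors lie on or below the line, and 1 of 25 cell cycle genes does.

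Promoters with H3K4me2 only were poor in CpG. In the 300 bases around the start, the median count of CpG was 7 at H3K4me2-only starts, 30.5 at H3K4me3-only starts, 27 at starts with both and 5 at starts with neither, against 22 over all genes. Median GC content was 57.7%, 70.7%, 66.3% and 52.0% in the same order. Leaving out the 53 starts with an H3K4me2 peak that overlapped H3K4me3 outside the window gave a median of 8 CpG for H3K4me2 only. The share of H3K4me2-only starts was 11.6% of promoters with 0 to 4 CpG, 15.3% of those with 5 to 9 and 1.80% of those with 30 or more. The share with both rose through the same 3 bins, at 7.56%, 26.2% and 90.5%. Of promoters with 0 to 4 CpG, 80.9% held neither mark. The H3K4me3-only median rests on the unstable 24 genes. Within starts with both, the 1978 of highest H3K4me2 to H3K4me3 ratio had a median of 27 CpG and the other 5930 had 28.

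**Figure D5:**
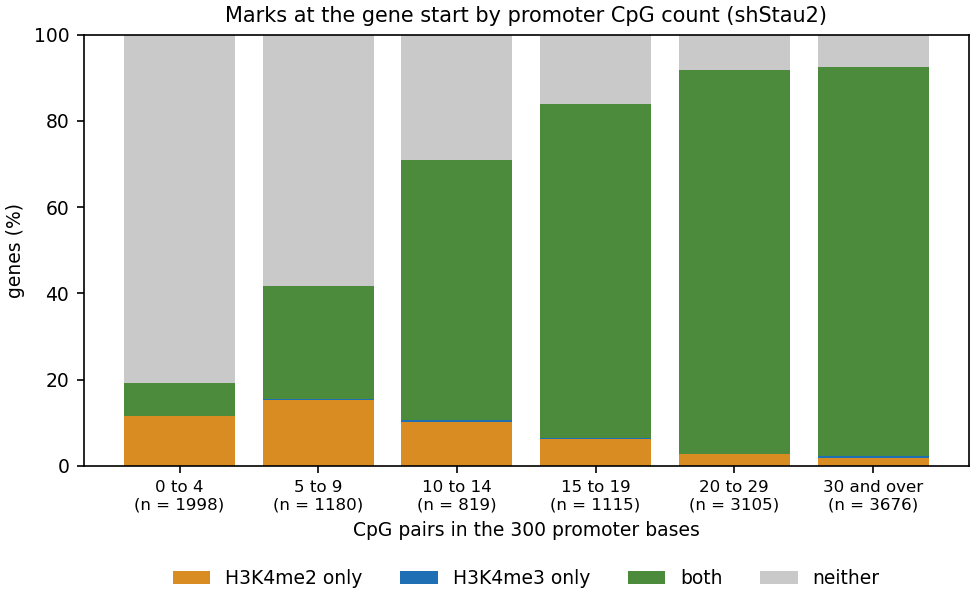
Share of genes (%, vertical axis) with each set of marks, by the number of CpG pairs in the 300 promoter bases (horizontal axis, with the number of genes). H3K4me2 only makes up 15.3% of promoters with 5 to 9 CpG and 1.80% of those with 30 or more, and both marks make up 7.56% of those with 0 to 4.

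Short motifs were counted on both strands of the same 300 bases, as a description only. TATAAA, the letters of the TATA box, was in 12.1% of H3K4me2-only promoters (9.76 to 14.7), 4.63% of those with both and 20.8% of those with neither, against 9.48% of all promoters. GGGCGG, the GC box, was in 40.4% of H3K4me2-only promoters, 74.5% of those with both and 25.8% of those with neither, against 59.2% of all. It was in 17 of the 24 H3K4me3-only promoters. AGATAA, the letters of a GATA site, was in 11.6% of H3K4me2-only promoters, 4.32% of those with both and 14.6% of those with neither, against 7.55% of all; HBD, printed above, is among them. CCAAT was in 29.5%, 36.7% and 36.1% of these 3 classes in the same order, against 36.1% of all. TATAAA and AGATAA were in none of the 24 H3K4me3-only promoters, which allows a share of up to 14.2%.

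The same division was made under shControl in the same region. Sites with H3K4me2 only made up 71.1% under shStau2 and 74.6% under shControl, sites with both 27.9% under shStau2 and 24.9% under shControl, and sites with H3K4me3 only 0.952% under shStau2 and 0.514% under shControl. Of H3K4me2 peaks, 32.5% overlapped H3K4me3 under shStau2 and 29.0% under shControl. H3K4me3 overall stood higher in the shStau2 library: over 11438 peaks matched 1 to 1, its median fold was 31.5 under shStau2 and 15.2 under shControl. For 40029 matched H3K4me2 peaks the medians were 8.46 under shStau2 and 7.03 under shControl. No outside scale was used, and the part of these library-wide levels in the class shares was not tested.

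Most classes carried over from one hairpin to the other. Of the 44191 H3K4me2-only sites under shStau2, 66.1% held H3K4me2 and 52 held H3K4me3 under shControl. Of the 17371 sites with both, 74.99% held both under shControl, and those whose H3K4me3 was not listed there had a median H3K4me3 fold of 5.60 under shStau2. By gene, 483 starts held H3K4me2 only under both hairpins and 7555 held both marks under both. Starts with both marks under shStau2 and H3K4me2 only under shControl numbered 313, and the reverse 9. With equal numbers of peaks of each mark under both hairpins, these counts were 196 and 32.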

How the data were processed

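ChIP-seq peak lists for H3K4me2 and H3K4me3 in K562 cells were used, grouped by the sample titles. Alignment was to hg38 with Bowtie2, per the submitters' processing notes, in a version not given in the sources used here. Peaks of each library were then called by the authors with MACS2 2.1.2 against the input of the same hairpin, at a q-value threshold of 0.05, with narrow peaks and 1 tag kept per position, per the file headers. Each deposited row gives the signal as pileup at the summit of tags extended to 200 bases; by the file headers, MACS2 had scaled the larger of ChIP and input down to the smaller. In the deposited fold enrichment, summit pileup plus 1 is divided by local background plus 1. The −log10 of the p-value and of the q-value were deposited for each peak. The peak tables of H3K4me2 end at 65507 rows, sorted by chromosome name, and for shStau2 that is at chromosome 4, position 185623562, which sets the region compared.

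Peaks were merged and classed in Python 3.11.15 with pandas 2.3.3, numpy 2.4.6 and scipy 1.17.1. Overlaps were checked with bedtools 2.31.1, which gave the same 21316 H3K4me2 and 19136 H3K4me3 peaks, and the classing was tested on simulated peaks. Gene starts and promoters came from RefSeq, GRCh38.p14, the build of the peaks; 2836 of 14729 protein-coding genes of the region have no start in that table and were left out of gene counts. Tags per library set the precision, and weak peaks near the q-value threshold are the least certain. The lists hold no peak below that threshold, so a missing mark means no peak was listed.

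The members, the 21 gene lists and the tests were chosen with earlier results of these data known. Named genes were KDM1A and STAU1, the 6 genes of highest fold in each class (for both, of the highest lower rank), up to 3 members of each list and class, the 6 highest sites away from starts and the 4 widest sites. Others are named as picked after their values were seen, or as further members of a list. Starts were ranked by the ratio of the 2 folds, with an upper quartile chosen after seeing the data. Alternatives varied the overlap, the peak threshold, the number of peaks, the merging of peaks, the window, the region and the starts used.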

Additional observations from a re-analysis of the deposited data

How the results depend on the processing

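Of 841 values recomputed under the alternatives, 660 stayed close to the reported one (a count within 1.5 times, a share within its 95% interval, a median within the quartiles), and 181 moved; among values that answer a comparison, 44 of 135 moved. The share of H3K4me2 peaks with H3K4me3 (32.5%) was 31.5% with an overlap of at least 50% of the shorter peak, 32.1% with a summit inside the other peak, 36.4% with the other mark within 1 kb, 33.4% with peaks within 1 kb merged, 43.6% at a fold of at least 5, 52.0% at a −log10 q of at least 10 and 86.0% with as many H3K4me2 as H3K4me3 peaks. The share of H3K4me3 peaks with H3K4me2 (97.0%) was 96.7% under the first 2 of these, 97.6% within 1 kb, 97.3% at the −log10 q limit and 78.7% with equal numbers. H3K4me2-only sites numbered 24602 at the fold limit, 15744 at the −log10 q limit and 2756 with equal numbers, and H3K4me3-only sites 389 at the −log10 q limit and 4203 with equal numbers. These 2 classes thus depend on how deep into the H3K4me2 list one goes, while sites with both stayed between 13510 and 17371.

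At a gene start lay 3.44%, 2.77%, 1.79% and 2.00% of H3K4me2-only sites under the 50%, summit, 1 kb and merging alternatives, 3.46% at the fold limit, 4.97% at the −log10 q limit and 4.32% with equal numbers, and 1.86%, 5.58% and 11.97% with windows of 0.5, 2.5 and 5 kb. For H3K4me3-only sites it was 8.23% at the −log10 q limit, 10.1% with equal numbers and 8.95% within 5 kb. For sites with both it was 48.1%, 53.0% and 51.6% at the fold limit, the −log10 q limit and equal numbers, and 42.8%, 45.2% and 48.0% with the 3 windows. In each of these, sites with both lay at gene starts most often; H3K4me2-only sites did so least often except within 5 kb, where H3K4me3-only sites were the lowest.

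Genes with H3K4me2 only numbered 112 with equal numbers of peaks. Genes with H3K4me3 only numbered 38 within 0.5 kb, 364 with equal numbers, 556 when a peak had to cover 50% of the shorter of itself and the window, and 936 when its summit had to lie in the window, so the 24 are not a stable class. T cell genes with H3K4me2 only numbered 4 within 0.5 kb, 3 at the −log10 q limit and 1 with equal numbers. With only genes whose start lies within 1 kb of the end of the gene span, an alternative chosen after seeing the data, the 4 gene classes and the T cell count of 7 stayed close, and H3K4me2-only genes became 1 in the erythroid list and 0 in the interferon and the ribosomal list. For these values the cause was not tested. No paired analysis was possible because each group holds 1 library. With 1 library per mark the data cannot separate a site that lacks a mark from one whose mark fell below the threshold.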

Other observations

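H3K4me2-only sites away from gene starts were also counted around each gene. Within 50 kb of the start, genes had a median of 3 such sites, 4 where the start held H3K4me2 only, 4 where it held both marks and 2 where it held neither. Among the cell type lists the medians were 5.5 for erythroid, 6 for granulocyte and monocyte, 4.5 for fibroblast and mesenchymal, 4 for megakaryocyte and platelet, 4 for T cell, 3 for B cell, 3 for blood transcription factor and stem cell, 2 for hepatocyte and 1 for neuronal genes, so blood and other lists overlapped. Ion channel genes had a median of 1 and keratin genes of 0. No erythroid gene had none, while 9 of 20 neuronal genes and 63 of 114 keratin genes had none. Over all genes, 15.5% had none. The megakaryocyte and platelet, LSD1 complex, cell cycle and HOX lists also held no gene without such a site.

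The largest numbers were picked after the values were seen. YES1, a SRC-family kinase, had 24 such sites within 50 kb, GAB2, an adaptor of cytokine receptor signalling, had 22 and EPB41, the red cell membrane protein 4.1, had 21. All 3 held both marks at the start. DNAJC6 had 21 with neither mark at the start used. Whether the starts used for genes of this paragraph lie inside their gene spans is not given here, and another start may carry other marks. IL10RA, the interleukin 10 receptor chain, had 20 with H3K4me2 only in its start window, at a fold of 27.9, and is one of the 53 starts whose H3K4me2 peak overlaps H3K4me3 outside the window.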
